A study of Homo sapiens with 4 samples.

Results

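The NR4A and EGR factors are 2 small families of transcription factors, and their 6 members considered here (NR4A1, NR4A2, NR4A3, EGR1, EGR2 and EGR3) were taken by gene symbol from the 48162 genes of the deposited table. The data are RNA-seq libraries of MDA-MB-231, an established human breast cancer cell line, after 24 h with vehicle control (2 libraries) or with MGH-CP1, an inhibitor of TEAD palmitoylation (2 libraries). The sample labels give the dose of MGH-CP1 as 10 µM, whereas the methods of the study write the same number in mM. All 4 libraries come from this single line, grown in DMEM with fetal bovine serum and antibiotics, and the labels do not say whether same-group libraries came from separate cultures, so that the spread between them may be technical. The comparison asks how the genes respond when the TEAD–YAP/TAZ complex is blocked.

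Both families belong to the immediate-early genes, which are transcribed within minutes of a growth factor, cytokine or stress signal without new protein synthesis, and whose short-lived mRNAs usually fall again within hours. The NR4A proteins are orphan nuclear receptors that work without a known natural ligand; they bind DNA as monomers or as dimers, and NR4A1 and NR4A2 can also pair with the retinoid X receptors (RXR). The EGR proteins bind GC-rich DNA through 3 zinc fingers, and the corepressors NAB1 and NAB2 hold them in check. Transcription of EGR1 is classically driven by ERK signalling through serum response factor (SRF) and its ETS-family partners, and that of the NR4A genes by CREB and MEF2 proteins.

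Of the 6 genes, 2 had a mean level high enough for the main test, NR4A2 and EGR1, and NR4A2 only through its level with MGH-CP1. NR4A2 passed this test, with a level that was 2.0-fold higher after MGH-CP1, while EGR1, the most abundant of the 6, did not pass it. NR4A1, NR4A3, EGR2 and EGR3 were near the limit of detection in every library. After MGH-CP1 the level of NR4A2 came close to, but stayed below, that of EGR1. Of the 41 other immediate-early genes that could be tested, 23 rose (56.1%, beside 27.1% of all genes tested) and 11 fell (26.8%, beside 23.8%). This list and the other gene lists below were written from general knowledge, but with earlier results of these data known. Their shares are therefore descriptions and not independent evidence.

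The RefSeq promoter table (GRCh38.p14, 250 bases before to 50 bases after each start site) matched 4 of the 6 genes, NR4A1, NR4A3, EGR1 and EGR2; NR4A2 and EGR3 were not matched. Among the promoters matched, that of EGR1 held the most elements for SRF and that of NR4A3 the most cores of the element for CREB, so these are shown. Capitals mark CArG boxes, the element SRF binds, in EGR1, and the core (TGACG) of the cAMP response element (CRE), which CREB binds, on either strand in NR4A3. EGR1 lies at chr5:138465229-138465528 on the plus strand and NR4A3 at chr9:99821635-99821934 on the plus strand.
EGR1: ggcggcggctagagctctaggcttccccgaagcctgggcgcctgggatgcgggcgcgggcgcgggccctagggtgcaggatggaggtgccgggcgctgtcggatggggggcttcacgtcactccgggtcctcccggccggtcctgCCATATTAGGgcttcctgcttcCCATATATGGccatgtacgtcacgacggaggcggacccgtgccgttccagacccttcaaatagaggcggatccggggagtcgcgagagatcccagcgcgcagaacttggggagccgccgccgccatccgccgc
NR4A3: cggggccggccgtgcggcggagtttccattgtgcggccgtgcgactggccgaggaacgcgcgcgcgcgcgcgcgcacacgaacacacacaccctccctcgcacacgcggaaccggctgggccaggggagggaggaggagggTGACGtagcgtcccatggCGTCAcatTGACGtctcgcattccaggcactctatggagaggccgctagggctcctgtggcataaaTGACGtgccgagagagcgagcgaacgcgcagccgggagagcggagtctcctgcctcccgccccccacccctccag

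In the EGR1 promoter the CArG boxes began 105 and 83 bases before the start site, and CRE cores began 135 and 66 bases before it. The NR4A3 promoter held no CArG box but 4 CRE cores, at 109, 91, 83 and 25 bases before the start site, and a TEAD element (GGAATG) at 73. Of the 3 EGR2 promoters in the table, the one at the most downstream start held a CArG box at 71 bases and CRE cores at 110 and 54 bases before the start, and the one at the most upstream start held TEAD elements at 68 and 22 bases. Over all 35116 promoters of the table and both strands, a CArG box was present in 1.29%, a CRE core in 24.55% and a TEAD element in 14.0%. The full CRE TGACGTCA (1.85% of promoters, overlapping the core), the AP-1 element TGANTCA (7.71%), the EGR element GCGTGGGCG (0.794%), the NR4A element AAAGGTCA (1.22%) and TATAAA (11.5%) were not found in any of the windows of these 4 genes, and neither NR4A1 window held any of the 8 motifs searched. These matches describe letters in the reference and no binding in these cells.

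The deposited values are FPKM, that is fragments scaled to the length of the gene and to all fragments on genes in the library, so levels can be compared between genes. Each value could be turned back into whole fragments, with totals of 25455533 and 25508824 for vehicle control and of 17997221 and 17577930 for MGH-CP1, whose libraries were thus the shallower ones. Vimentin, CD44, KRT8, KRT18 and CAV1 summed to between 1130 and 1318 FPKM in each library, whereas the estrogen and progesterone receptors ESR1 and PGR had at most 4 fragments in a library, as did the leukocyte gene PTPRC and the fibroblast gene DCN. EPCAM, an epithelial gene, had 12.3 and 13.9 FPKM with vehicle control and 16.4 and 13.5 FPKM with MGH-CP1. The TEAD targets CYR61, CTGF and ANKRD1 fell by 0.75, 0.66 and 0.66 on the log2(FPKM + 1) scale (adjusted p from 3.29e-05 to 1.02e-04, limma). KRT8, KRT18 and CAV1 also fell, by 0.18, 0.35 and 0.49 on that scale.

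NR4A2 (ENSG00000153234) encodes Nurr1, a receptor best known from dopamine neurons and induced by many stimuli in other cells. It lies on the minus strand at chr2:157180944-157198860 (hg19, the build named in the submitters' processing notes), with a counted length of 3472 bases. Its level was 0.939 and 1.02 FPKM in the vehicle control libraries, from 83 and 90 fragments, and 2.03 and 1.88 FPKM in the MGH-CP1 libraries, from 127 and 115 fragments. Both MGH-CP1 libraries lay above both vehicle control libraries, and by more than the counting error: the 95% intervals of exact Poisson counting ended at 1.16 and 1.25 FPKM for vehicle control and began at 1.69 and 1.56 FPKM for MGH-CP1. The means were 0.978 ± 0.0545 FPKM (SD, n = 2) and 1.96 ± 0.105 FPKM (SD, n = 2). In bulk RNA, more transcript in each cell and a larger share of cells with the transcript cannot be told apart.

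On the log2(FPKM + 1) scale, where the added 1 shrinks the change of a gene at this level, the difference for NR4A2 was 0.58 (standard error 0.12, 95% confidence interval 0.32 to 0.85). The adjusted p was 0.00386 from limma over the 12080 genes whose mean was 1 FPKM or more. NR4A2 passed this filter only through its level with MGH-CP1, since its vehicle control mean was 0.978 FPKM. Without the filter its adjusted p was 0.0351 in limma. From the recovered fragments, limma voom put the difference at 1.00 on the log2 scale (standard error 0.19, 95% confidence interval 0.61 to 1.40, adjusted p = 2.75e-04). An exact permutation test (two-sided) gave p = 0.333, the smallest that 2 libraries against 2 can give, so the call rests on the variance shared between genes. Without that sharing the adjusted p of NR4A2 in limma was 0.0637. Changes of this kind were common in these cells: 27.1% of the genes tested were called higher and 23.8% lower, and 8.05% rose by more than NR4A2 on this scale, or 4.02% by the ratio of mean FPKM, which is not shrunk. NR4A2 is also in the study's list of genes commonly raised when YAP/TAZ–TEAD is blocked. The list was drawn in part from these libraries, and that part is not independent evidence of the direction of NR4A2. It also required a significant rise in public RNA-seq data of YAP/TAZ knockdown, which do not come from these libraries and were not examined here.

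EGR1 (ENSG00000120738) encodes a zinc finger factor that links growth factor signals to many downstream genes. It lies at chr5:137801179-137805004 on the plus strand in hg19, with a counted length of 3138 bases. Its level was 2.58 and 2.60 FPKM with vehicle control (206 and 208 fragments) and 2.50 and 2.18 FPKM with MGH-CP1 (141 and 120 fragments). With MGH-CP1 both values were lower, but the first of them by less than its own counting error, whose 95% interval ran from 2.10 to 2.94 FPKM. Such ordering was frequent, since 37.4% of the genes tested had both MGH-CP1 libraries below and 39.8% had both above the vehicle control libraries. The difference was -0.11 on the log2(FPKM + 1) scale (standard error 0.10, 95% confidence interval -0.34 to 0.13, adjusted p = 0.411 from limma). In limma voom the fold was 0.902, with a 95% confidence interval from 0.723 to 1.13 that did not reach the 2.0-fold change of NR4A2.

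**Figure D1:**
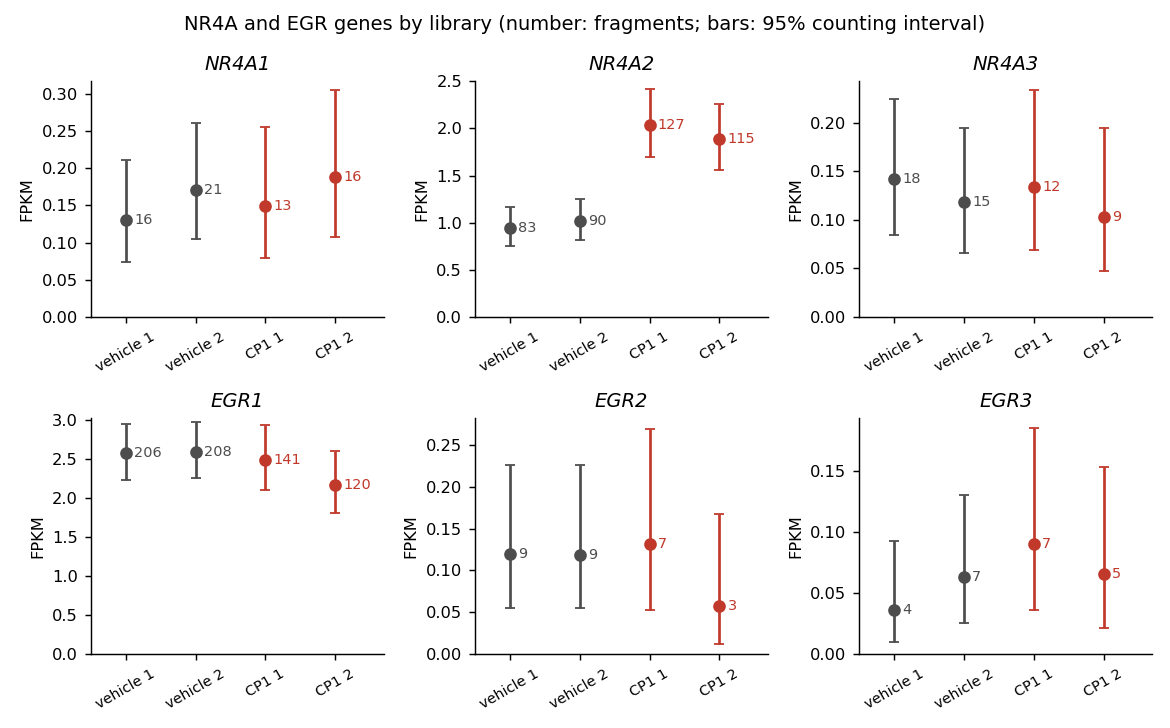
FPKM of each gene (y axis from 0, a scale of its own per gene) in the 2 vehicle control (grey) and 2 MGH-CP1 (red) libraries, with the fragments behind each point and 95% exact Poisson counting intervals as bars. Only for NR4A2 do the intervals of the conditions stand apart; EGR2 and EGR3 rest on 3 to 9 fragments a library.

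The other NR4A receptors showed no such difference. NR4A1 (Nur77; chr12:52416616-52453291, plus strand, hg19), the receptor most often studied as an immediate-early gene and as a regulator of apoptosis, had 0.130 and 0.170 FPKM with vehicle control and 0.149 and 0.188 FPKM with MGH-CP1, from 13 to 21 fragments a library. NR4A3 (NOR1; chr9:102584137-102629173, plus strand, hg19) had 0.142 and 0.118 FPKM with vehicle control and 0.134 and 0.103 FPKM with MGH-CP1, from 9 to 18 fragments. The conditions overlapped for both genes. From the fragments, the fold after MGH-CP1 was 1.13 for NR4A1 (limma voom, 95% confidence interval 0.583 to 2.21) and 0.923 for NR4A3 (0.443 to 1.92). The interval of NR4A1 thus includes a change as large as that of NR4A2, and whether the receptors differed in their response was not tested. NR4A2 made up 77.5% and 77.9% of the summed FPKM of the NR4A genes with vehicle control and 87.8% and 86.6% with MGH-CP1.

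EGR2 and EGR3, which act in nerve myelination and in lymphocytes among other places, were lower still. EGR2 (chr10:64571756-64679660, minus strand, hg19) had 0.119 FPKM in both vehicle control libraries (9 fragments each) and 0.131 and 0.0575 FPKM with MGH-CP1 (7 and 3 fragments). EGR3 (chr8:22545172-22550815, minus strand, hg19) had 0.0362 and 0.0633 FPKM with vehicle control (4 and 7 fragments) and 0.0897 and 0.0656 FPKM with MGH-CP1 (7 and 5 fragments). The values of EGR3 happened not to overlap, yet the fragments themselves did, and its fold of 1.59 in limma voom had a 95% confidence interval from 0.563 to 4.46; that of EGR2 was 0.775 (0.285 to 2.11). Part of EGR3 overlaps ENSG00000253125, a processed transcript on the opposite strand with 8 fragments in all 4 libraries, and whether the counting used the strand is not given in the sources used here. RP11-1100L3.8, which overlaps NR4A1 on the opposite strand, was listed at 0 in every library.

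Of the 6 genes, 2 passed the filter on mean FPKM, and 1 of these was called higher and 0 lower. Over all genes tested in that fit, 27.1% were called higher and 23.8% lower, so a single call among so few genes says little about the families. With limma voom on all 17598 genes with at least 10 fragments, where 22.1% were called higher and 17.4% lower, again NR4A2 was called and the other 5 were not (adjusted p from 0.477 to 0.883). In order of level, EGR1 came first in every library, followed by NR4A2, although with MGH-CP1 the counting intervals of these genes overlapped. Next by mean came NR4A1, NR4A3, EGR2 and EGR3, and within each library the counting intervals of neighbours in this order overlapped. Of all annotated protein-coding genes, those without fragments included, 52.4% and 48.3% had a lower mean FPKM than EGR1 and NR4A2. For the other 4 this share was 33.1% to 37.4%. With a mean of 1.47 FPKM, NR4A2 lay just above the filter of 1 FPKM.

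**Figure D2:**
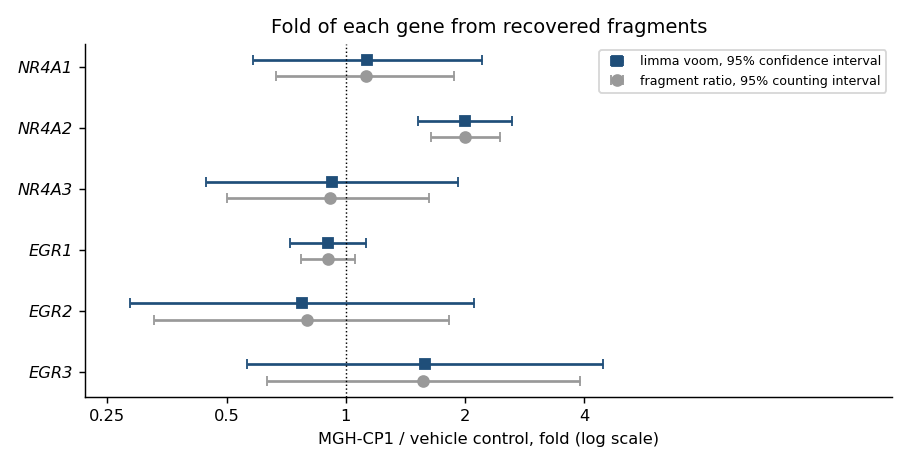
Fold after MGH-CP1 (log scale) from the recovered fragments, as limma voom estimates with 95% confidence intervals (squares) and as fragment ratios with 95% exact counting intervals (circles). The interval of NR4A2 lies above 1 (1.52 to 2.63 in limma voom) while those of the other 5 genes include 1.

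The gene profiles nearest to NR4A2 over the 4 libraries, by Euclidean distance between centred log2(FPKM + 1) values, were those of GOLGA2 (0.00594), INPPL1 (0.0111) and IRF2BPL (0.0120), all at 26.3 FPKM or more on average and hence of far higher level. Those nearest to EGR1 were NANOS1 (0.0119), KBTBD2 (0.0168) and TESK2 (0.0169). The likeness to NR4A2 holds on this scale, where the added 1 shrinks the change of NR4A2 but hardly that of the others: the FPKM of GOLGA2, INPPL1 and IRF2BPL after MGH-CP1 were 1.51, 1.5 and 1.52 times those with vehicle control, against 2.0 times for NR4A2.

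Other immediate-early genes moved in both directions, and the share that rose was above that of all genes tested while the share that fell was near it. Of 48 genes on the list (AP-1 members, dual-specificity phosphatases, KLF and IER genes and other rapid-response genes), 41 were tested, of which 23 were called higher (56.1%, beside 27.1% over all genes tested), 11 lower (26.8%, beside 23.8%) and 7 neither. The median difference was 0.27 on the log2(FPKM + 1) scale, beside 0.01 over all genes tested. Without MGH-CP1 replicate 1 the lower calls dropped to 7, while the higher calls stayed between 21 and 22 with any library left out.

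The largest rises on this list were those of TRIB1, a pseudokinase that targets proteins for degradation, from 2.68 and 2.74 FPKM to 5.44 and 6.01 FPKM, of NFKBIZ, a nuclear regulator of NF-κB targets, from 3.50 and 3.57 FPKM to 7.17 and 7.06 FPKM, and of DUSP6, the phosphatase that switches off ERK, from 50.6 and 52.0 FPKM to 93.2 and 85.1 FPKM. Their differences on the log2(FPKM + 1) scale were 0.86, 0.84 and 0.78 (adjusted p from 3.98e-05 to 1.67e-04, limma), beside 0.58 for NR4A2. On this scale 8 of the 41 tested genes rose by more than NR4A2, but from the fragments (limma voom) only TRIB1 and NFKBIZ did. The largest falls were those of CYR61 and CTGF, secreted matrix proteins already named above as TEAD targets, and of the kinase SGK1. CYR61 went from 368 and 383 FPKM to 216 and 229 FPKM, CTGF from 93.5 and 94.6 FPKM to 55.9 and 62.6 FPKM, and SGK1 from 3.57 FPKM in both vehicle control libraries to 1.73 and 1.95 FPKM.

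Of the 7 genes on the list under the filter, FOS is named here after its values were seen, as the gene most often measured beside EGR1. It had 0.928 and 1.31 FPKM with vehicle control and 0.541 and 0.606 FPKM with MGH-CP1, both lower and from as few as 21 fragments. In limma voom its log2 change was -0.93 (standard error 0.34, adjusted p = 0.0380), the opposite direction from NR4A2. EGR4, the remaining EGR gene, had at most 2 fragments in a library.

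**Figure D3:**
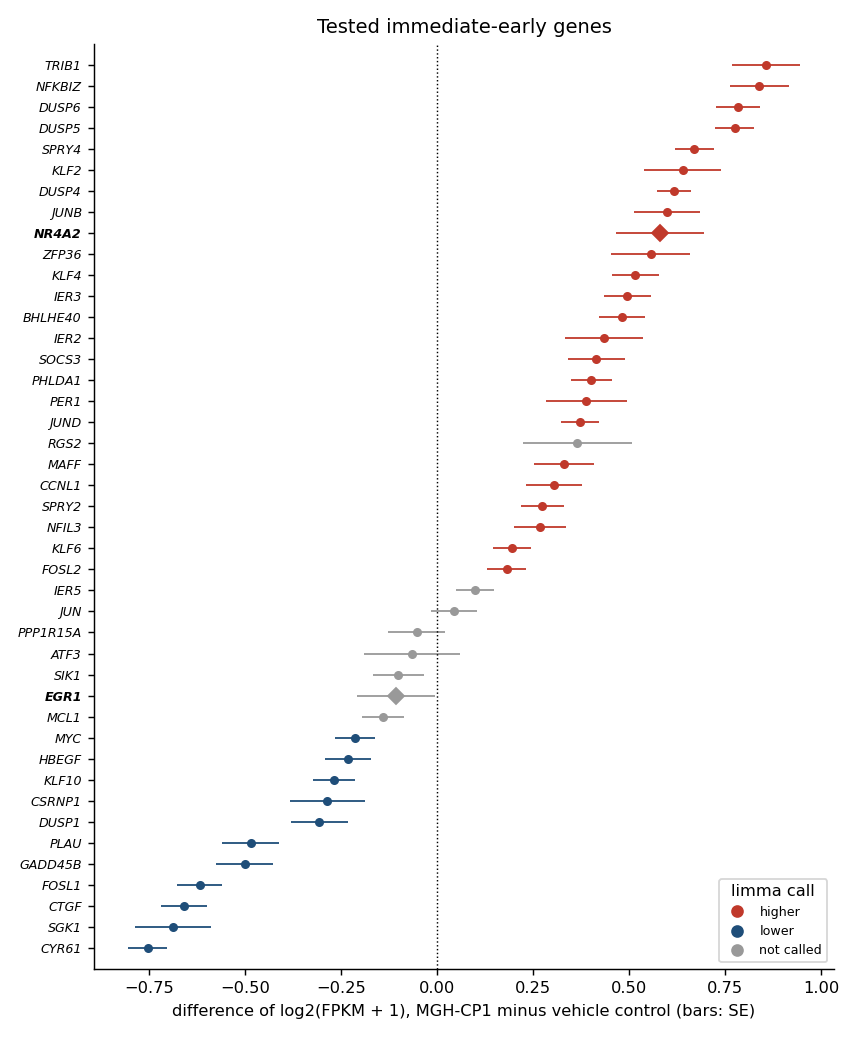
Difference of log2(FPKM + 1) between MGH-CP1 and vehicle control (points, with standard errors as bars) for the 41 tested immediate-early genes, with NR4A2 and EGR1 as diamonds, coloured by the limma call. NR4A2 (0.58) lies within the span of the 23 genes called higher, from 0.18 to 0.86, and EGR1 (-0.11) was called neither way.

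The regulators upstream of these genes were called about as often as genes in general. Of 28 genes for SRF, ETS, CREB and MEF2 factors and the kinases and deacetylases that act on them, all 28 were tested, and 8 were called higher and 8 lower (28.6% each, beside 27.1% and 23.8% over all genes tested), with a median difference of -0.01 on the log2(FPKM + 1) scale. These calls were unstable: the lower calls were 2 without vehicle control replicate 1 and without MGH-CP1 replicate 1, and 3 without MGH-CP1 replicate 2, and the higher calls were 5 without MGH-CP1 replicate 2.

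Among the MEF2 proteins, which are known to act on NR4A promoters, MEF2C rose from 1.22 and 1.23 FPKM to 2.15 and 2.24 FPKM (log2 difference 0.52, standard error 0.11, adjusted p = 0.00487 from limma). MEF2D rose from 13.3 and 14.5 FPKM to 19.0 and 18.7 FPKM (log2 difference 0.42, standard error 0.06, adjusted p = 0.00111 from limma). MEF2A was not called (log2 difference 0.12, adjusted p = 0.161 from limma). HDAC5, a class IIa deacetylase that binds MEF2 proteins and represses their targets, rose most on the list, from 6.76 and 6.58 FPKM to 14.2 and 13.8 FPKM (log2 difference 0.97, adjusted p = 3.09e-05 from limma). The falls were smaller. SIK2, a kinase that keeps the CREB coactivators and class IIa deacetylases out of the nucleus, fell by 0.29, RPS6KA5, the kinase MSK1 that phosphorylates CREB, by 0.28, and ATF1, a relative of CREB, by 0.26 on the log2(FPKM + 1) scale (adjusted p from 0.00997 to 0.0484, limma). SRF itself, named after its value was seen, fell by 0.19 (adjusted p = 0.0309 from limma).

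Of the cofactors of the 2 families, NAB1, NAB2, RXRA and RXRB rose. Of the 6 genes on the list, 5 were tested, and 4 of them were called higher (80.0%, beside 27.1% over all genes tested) and 0 lower (beside 23.8%), with a median difference of 0.30 on the log2(FPKM + 1) scale. The tested gene that was not called was WT1, a zinc finger transcription factor on the same list (log2 difference 0.0014, adjusted p = 0.994 from limma). With 5 genes tested, the share called says little about the cofactors as a group. NAB2, a corepressor of EGR proteins that is itself induced by them, rose from 5.94 and 6.71 FPKM to 9.04 and 9.0 FPKM (log2 difference 0.45, standard error 0.08, adjusted p = 0.00190 from limma). NAB1, its more steadily expressed relative, rose from 8.03 and 7.53 FPKM to 9.65 and 10.0 FPKM, with a log2 difference of 0.30. RXRB, a partner of NR4A2, rose from 30.2 and 33.5 FPKM to 42.5 and 45.3 FPKM (log2 difference 0.45, adjusted p = 8.11e-04 from limma). RXRG had at most 1 fragment in a library.

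Among genes known as EGR targets, more rose than fell. Of 10 listed, 8 were tested, 5 of which were called higher (62.5%, beside 27.1% over all genes tested) and 2 lower (25%, beside 23.8%). NAB2, already counted among the cofactors, is 1 of the 5, and without MGH-CP1 replicate 1 the higher calls were 3. The median difference was 0.24 on the log2(FPKM + 1) scale. Fibronectin (FN1) rose from 89.9 and 86.3 FPKM to 164 and 149 FPKM and the adhesion molecule ICAM1 from 20.4 and 21.4 FPKM to 36.7 and 35.9 FPKM, whereas thrombospondin 1 (THBS1) fell from 190 and 185 FPKM to 94.0 and 117 FPKM and tissue factor (F3) from 246 and 250 FPKM to 160 and 175 FPKM. The genes on this list, those that rose as well as those that fell, are regulated by other factors too. Whether their levels followed EGR1, which was itself not called, was not tested.

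NR4A2 was compared last with the rest of its superfamily, the ligand-regulated and orphan nuclear receptors. Of 45 other receptors, 21 were tested, and 11 were called higher (52.4%, beside 27.1% over all genes tested) and 3 lower (14.3%, beside 23.8%). RXRA and RXRB, already counted among the cofactors, are 2 of the 11. Their median difference was 0.22 on the log2(FPKM + 1) scale. The lower calls dropped to 0 without vehicle control replicate 1 or without MGH-CP1 replicate 1, while the higher calls were 10 with any library left out.

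On the log2(FPKM + 1) scale 2 of the tested receptors rose by more than NR4A2, and from the fragments (limma voom) only NR1H3 did. They were NR1H3, the oxysterol receptor LXRα, which went from 3.27 FPKM in both vehicle control libraries to 8.24 and 6.90 FPKM (log2 difference 1.00, standard error 0.10, adjusted p = 1.19e-04 from limma), and RARG, a retinoic acid receptor, which went from 7.75 and 8.08 FPKM to 14.6 and 12.5 FPKM (log2 difference 0.70, standard error 0.08, adjusted p = 2.85e-04 from limma). The vitamin D receptor VDR fell from 2.83 and 2.63 FPKM to 1.51 and 1.97 FPKM. The glucocorticoid receptor NR3C1 and the clock repressor NR1D2 fell by 0.18 and 0.20 on the log2(FPKM + 1) scale.

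**Figure D4:**
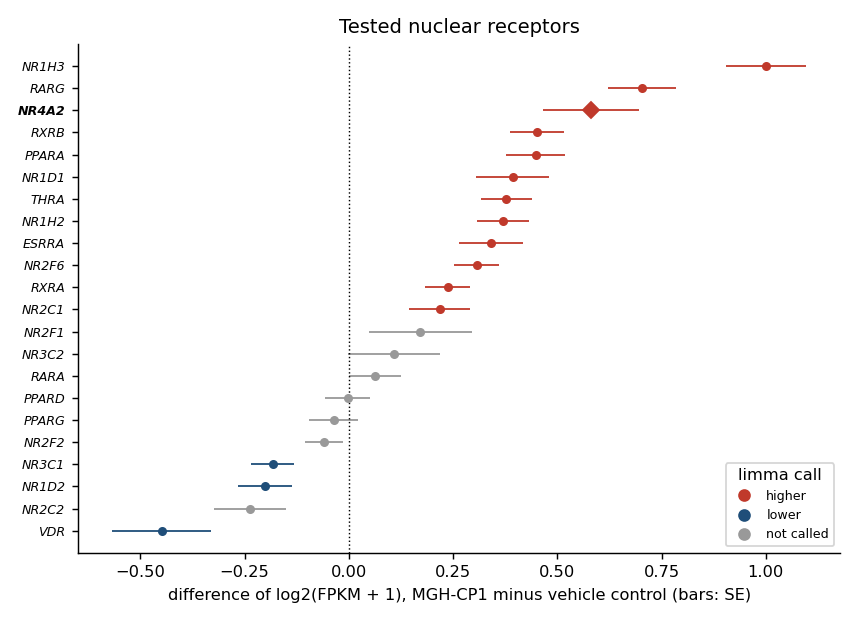
Difference of log2(FPKM + 1) between MGH-CP1 and vehicle control (points, with standard errors as bars) for NR4A2 (diamond) and the 21 other nuclear receptors tested, coloured by the limma call. NR4A2 (0.58, shrunk by the added 1) stands below NR1H3 (1.00) and RARG (0.70) on this scale, and VDR (-0.45) had the largest fall.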

How the data were processed

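RNA-seq of 2 vehicle control and 2 MGH-CP1 libraries of MDA-MB-231 cells was analysed; groups come from the sample titles. The authors deposited FPKM for 48162 genes with hg19-type coordinates and lengths; the submitters' processing notes name CASAVA 1.8, STAR and hg19, and the counting tool and its strand setting are not given in the sources used here. Multiplied by the deposited gene length, 100% of the FPKM above 0 came out as whole fragments (within 0.01) once divided by the value of 1 fragment in their library. The fit used limma 3.58.1 in R 4.3.3 (trend, two-sided, Benjamini-Hochberg over 12080 genes with mean FPKM of at least 1, threshold 0.05) on log2(FPKM + 1), since FPKM are not raw counts. Limma voom on fragments (at least 10 per gene) served genes under the filter. Fold intervals of fragments are exact binomial and level intervals exact Poisson at 95% (scipy 1.17.1), and cover counting error only. A per-gene test without shared variance was an alternative, beside other pseudocounts, filters, scalings, the replicate block and leaving out each library. The members and gene lists were chosen with earlier results of these data known, the lists from general knowledge. By rule, named genes are the members and the 3 largest called rises and falls of each list among genes whose conditions did not overlap. The TEAD targets, the nearest profiles, markers and overlapping genes were named by rule too. FOS, SRF, MEF2A, WT1, RXRA, RXRG and EGR4 were named outside this rule. The script was tested on simulated data.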

Additional observations from a re-analysis of the deposited data

How the results depend on the processing

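NR4A2 was higher under every alternative that tested it (a mean FPKM of at least 5 left out all 6 genes): its log2 difference was 0.93 with a pseudocount of 0.1, 0.55 with median-ratio scaling, 0.43 with quantile normalization and 0.54 to 0.62 with each library left out, and its adjusted p passed 0.05 in limma in all but the test without shared variance (0.58, adjusted p = 0.0637). EGR1 was called in none, and lay between -0.18 and -0.04 with each library left out. On fragments (limma voom), NR4A1 was at 0.18, NR4A3 at -0.12, EGR2 at -0.37 and EGR3 at 0.67 on the log2 scale, beside 0.02, -0.02, -0.03 and 0.04 on the log2(FPKM + 1) scale, which shrinks low levels. Their fragments limit what can be seen.

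Without shared variance 9 genes were called higher and 4 lower, in place of 3273 and 2869; on the lists 1 immediate-early gene was called higher and 0 lower, and on the other 4 lists 0 either way. Without the filter 24878 genes were tested, of which 2280 were called higher and 1844 lower. Of 48 immediate-early genes then tested, 15 were called higher and 8 lower, and of 28 upstream regulators 4 and 1. Of 9 EGR targets 3 were called higher and 2 lower, and of 42 other nuclear receptors 9 and 1. With each library left out, calls over all genes were 2512 to 2991 higher and 2129 to 2549 lower; on the immediate-early list 21 to 22 and 7 to 12, on the upstream list 5 to 7 and 2 to 6, on the EGR target list 3 to 4 and 2, on the other receptors 10 and 0 to 4, and among the cofactors 4 and 0. With the replicate number as a block, 3466 genes were called higher and 3052 lower and the adjusted p of NR4A2 was 0.0028 in limma; same-numbered libraries deviated together with a correlation of 0.0777 across genes, so the numbers were not taken as a pairing. In all, 158 alternative values kept direction and call, or stayed within the replicate spread or 1.5 times the count. Another 29 moved further, 1 lost its call and 0 reversed. Only values of NR4A2 and EGR1 could count as reversed, and some alternatives, such as the replicate block, leave the estimate of a gene unchanged. Where a value changed, the cause was not tested.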
